A study of Mus musculus with 6 samples.

Results

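Gene families that are active in oocytes and in the first days of embryonic development were followed in mouse embryoid bodies with and without the TET enzymes. The 35 genes listed comprise 13 Pramel genes, 8 Nlrp genes, Obox6, 4 Zscan4 genes, Tcstv1 and Tcstv3, Zfp352, 3 Tdpoz genes and 3 Usp17l genes. They were found on the array through the transcript accession of each probe. In this way 33 genes had 51 probes, of 20805 named genes and 55418 probes in all, and no probe was matched to Zscan4b or Zscan4d. The genes were chosen by family and with their array signals in knockout and wild-type embryoid bodies known, so that their values in that comparison are a description and carry no test.

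The study asked how embryonic stem cells differentiate when all 3 Tet genes are knocked out. The groups were 2 Tet1, Tet2 and Tet3 triple knockout lines, TKO_26 and TKO_29, and 1 wild-type line, WT, all of a mixed 129/C57BL6 background. Each line was grown for 10 days as embryoid bodies, stem cell aggregates that give rise to tissues of the germ layers: 2 days in hanging drops and 8 days in suspension, without LIF, the cytokine that maintains stem cells. Total RNA labelled with Cy3 was hybridised to 1-colour Agilent arrays, with 2 arrays per line. The series calls the arrays of a line technical replicas, so there were n = 2 TKO lines and n = 1 WT line, and p-values over arrays measure no more than the spread between arrays of 1 line. What is particular to the single WT line and what comes with the genotype cannot be told apart.

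All 6 arrays lay on 1 slide, with the TKO arrays in column 2 and the WT arrays in column 1, so that position and genotype cannot be told apart either. The share of spots well above background ran from 38.4% to 55.8% on the TKO arrays and from 42.8% to 51.1% on the WT arrays. TKO_26 replicate 1 gave the lowest share, and its repeated probes had a median coefficient of variation of 14.1%, against 5.49% to 7.0% on the other arrays. Of 7 probes of the targeted Tet genes, 5 had a lower mean in both TKO lines than in WT. The others were a Tet1 probe, at -0.08 in TKO_26 and 0.23 in TKO_29 relative to WT on the log2 scale, and a Tet3 probe, at 1.05 and -0.62. The labels do not say which exons were deleted, so a probe outside them checks nothing. Of 8 markers of embryoid body derivatives, 6 fell in both TKO lines and 0 rose, with summed linear scaled signals of 0.641 to 0.753 on the TKO arrays and 11.97 to 12.36 on the WT arrays. The globin gene Hbb-bh1 and the yolk sac gene Afp were well above background on 0 of 4 TKO arrays and 2 of 2 WT arrays, Ttr, Tnnt2, Nes and Tubb3 on all 6, Cdh5 on 3 TKO and 2 WT arrays and Pax6 on 3 TKO and 1 WT arrays. Pax6, a gene of neural progenitors, was at least 2.06-fold higher in TKO and was not called, and the call of Tubb3 was lost without any 1 array other than WT replicate 2. All 8 markers of undifferentiated stem cells were above background on every array.

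As background, oocytes store transcripts and proteins that carry the embryo through fertilisation and the first cleavages. Many of the genes are members of clustered, recently duplicated families, among them the leucine-rich repeat genes Pramel and Nlrp and the homeobox genes Obox. In the mouse, a second set that includes Zscan4 and Tcstv is expressed in a burst at the 2-cell stage, when the embryonic genome is activated, and in a small, changing fraction of cultured stem cells. DNA methylation and repressive chromatin keep many germline and 2-cell genes silent in later cells, and TET proteins are dioxygenases that oxidise 5-methylcytosine, a step in its removal.

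Values are scaled log2 signals: the log2 of a probe's background-subtracted intensity minus the 75th percentile of the same array over probes well above background on all 6 arrays. Negative values are therefore usual and do not mean that no signal was measured. Probes were tested if at least 1 line had both of its arrays well above background, and the brightest such probe stood for its gene. A gene is called here when its limma adjusted p was under 0.05 and its difference at least 2-fold. Where a group was not well above background on every array, the fold is a bound and is written "at least". Folds and bounds hold for this processing alone and can be smaller with another background correction.

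Of the 33 genes with a probe, 27 entered the tests. For 16 of these no WT array was well above background, for 4 genes 1 WT array was, and for 7 genes both were. Of the 27, 13 were called higher than WT in both TKO lines and 0 were called lower: Pramel6, Pramel7, Pramel14, Pramel16, Pramel39, Pramel50, Nlrp4c, Nlrp4f, Nlrp5, Obox6, Zscan4c, Zscan4f and Tcstv3. Among all 21420 genes and unnamed features tested, 4.05% were called higher in both lines and 6.59% lower in both. Taken line by line, 15 were called higher and 0 lower in TKO_26, beside 5.6% and 7.79% of all features, and 17 and 0 in TKO_29, beside 8.16% and 11.2%. Because the list was drawn up on this contrast, the shares are given side by side and nothing is read from them. The fold or its bound was at least 2 for 9 of the 13, while for Pramel14, Pramel16, Pramel50 and Nlrp4c it was lower or could not be given. All 4 TKO arrays lay above both WT arrays for 19 of the 27 genes and for 24.9% of everything tested. With normexp background correction, 3 of the 13 were called, Nlrp4f, Obox6 and Pramel7. With lines as the replicates, limma called the same 3 genes higher, beside 0.154% of all features.

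Marker lists of other cell types were compared between the groups as well. Of 8 primordial germ cell markers tested, 3 rose in both TKO lines and 0 fell, namely Dazl, Ddx4 and Dppa3, while Kit lay at 0.702, Prdm1 at 0.742 and Tdrd5 at 0.739 times WT. Dazl entered the tests only through the TKO_29 arrays, which favoured its direction. The summed linear scaled signal of the 8 ran from 2.30 to 3.01 on the TKO arrays and from 2.21 to 2.49 on the WT arrays. Of 8 markers of undifferentiated stem cells, Sox2 (2.33-fold) and Nanog rose in both lines and 0 fell, and Zfp42 lay at 0.516 times WT, with sums of 10.7 to 21.1 on the TKO arrays and 13.4 to 18.3 on the WT arrays, in which the saturated probe of Dppa5a took part. The Sox2 call was lost without TKO_26 replicate 2, either TKO_29 array or WT replicate 1, with log2 differences of 1.03 to 1.22, and that of Nanog with the mean of its probes. Of 8 fibroblast markers, Col3a1, Pdgfrb, Fbn1 and Twist2 fell in both lines and 0 rose, with sums of 2.68 to 3.08 on the TKO arrays and 4.52 to 5.34 on the WT arrays. Of those not called, Thy1 lay at 1.66, Col1a2 at 1.18, Col1a1 at 0.772 and Postn at 0.628 times WT. The median log2 difference of the 8 was -1.69 in TKO_26 and -1.43 in TKO_29. Of 8 oocyte markers, 1 to 3 per array were well above background, and Zp2, Figla, Nobox and Oosp1 were so on 0 of the 6 arrays. The part of a change in cell types in the values of the families was not tested, and in bulk RNA more cells that express a gene and more RNA per cell cannot be told apart.

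**Figure D1:**
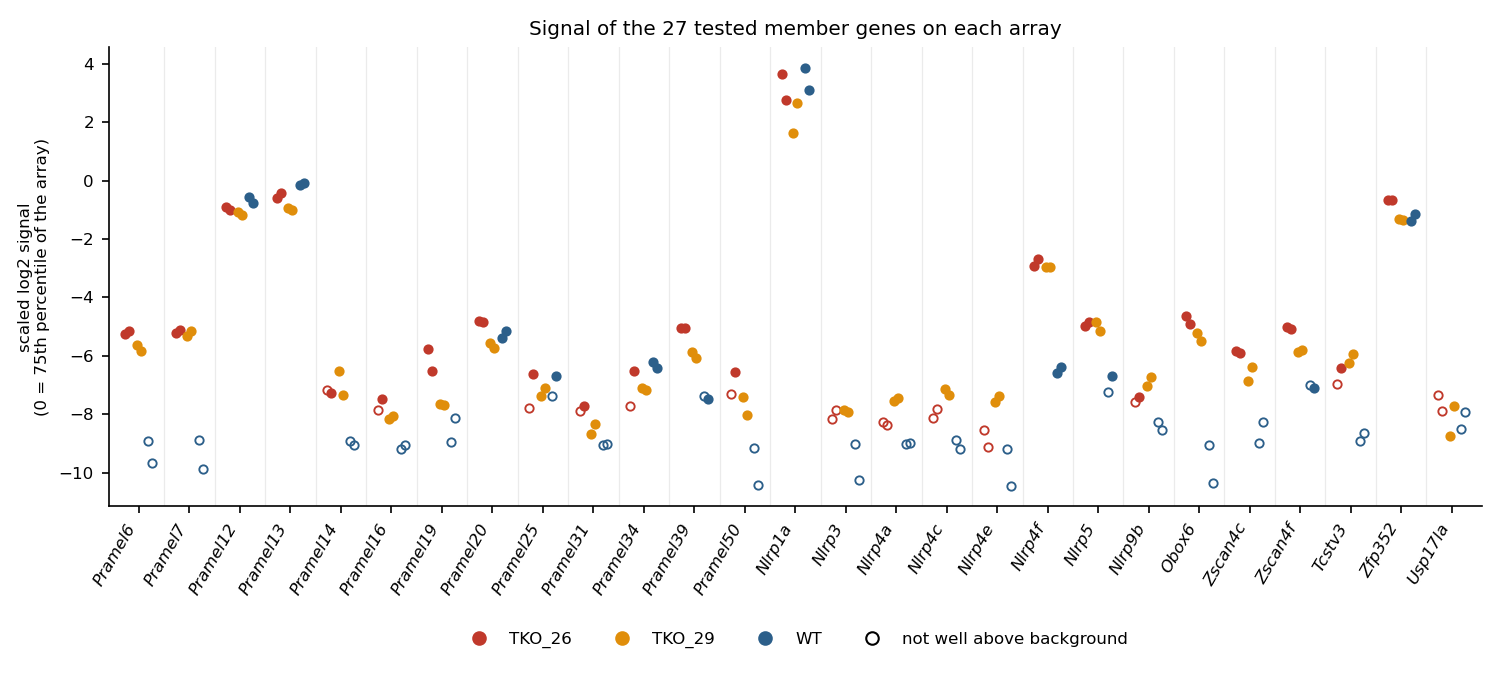
Scaled log2 signal of the 27 tested genes on each array (vertical axis, 0 is the 75th percentile of the array), with TKO_26, TKO_29 and WT from left to right within each gene; open circles are arrays on which the probe was not well above background. Pramel6, Pramel7, Obox6 and Nlrp4f show a wide gap between the 4 TKO arrays and both WT arrays, whereas Pramel12, Pramel13 and Zfp352 lie at similar signals on all 6.

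The Pramel genes encode leucine-rich repeat proteins related to human PRAME, and several proteins of this kind serve as substrate receptors of Cullin 2 ubiquitin ligases. Mouse Pramel7 is known to act in naive stem cells, where it directs UHRF1, a factor that maintains DNA methylation, to degradation. Pramel6 and Pramel7 lie next to each other on chromosome 2 on opposite strands, with 0 protein-coding genes of the RefSeq table between them. Their start regions are shown because they are neighbours with similar values on the arrays. Each holds 250 bases before the start site and 50 after it, from RefSeq with build GRCm38.p6, 5′ to 3′ in the direction of the gene, with CpG dinucleotides in capitals. That of Pramel6 is chr2:87506315-87506614 on the plus strand, and that of Pramel7 is chr2:87492369-87492668 on the minus strand.
Pramel6: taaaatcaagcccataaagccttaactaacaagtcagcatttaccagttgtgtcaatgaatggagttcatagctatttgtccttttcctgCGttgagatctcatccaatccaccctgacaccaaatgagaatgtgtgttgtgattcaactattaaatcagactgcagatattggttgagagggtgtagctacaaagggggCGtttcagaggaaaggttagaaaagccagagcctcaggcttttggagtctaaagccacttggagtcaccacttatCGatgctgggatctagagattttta
Pramel7: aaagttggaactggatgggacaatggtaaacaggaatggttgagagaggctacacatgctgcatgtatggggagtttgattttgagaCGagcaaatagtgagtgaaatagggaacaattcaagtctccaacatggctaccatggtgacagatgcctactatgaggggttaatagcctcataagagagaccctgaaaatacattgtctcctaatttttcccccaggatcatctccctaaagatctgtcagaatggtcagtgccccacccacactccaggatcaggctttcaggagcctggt
The window of Pramel6 holds 3 CpGs and that of Pramel7 holds 1, and their aligned sequences are identical at 49.4% of positions, gaps included.

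Both neighbours were well above background on all 4 TKO arrays and on neither WT array. Pramel6 had scaled log2 signals of -5.25 and -5.15 in TKO_26 and -5.62 and -5.83 in TKO_29, against -8.91 and -9.68 in WT. Its signal was at least 4.25-fold higher in TKO embryoid bodies, at least 5.11-fold in TKO_26 and at least 3.54-fold in TKO_29. Pramel7 had -5.22 and -5.13 in TKO_26 and -5.33 and -5.16 in TKO_29, against -8.88 and -9.86 in WT. All 4 TKO arrays of each gene lay above both WT arrays, and for Pramel7 the bound was at least 5.07-fold.

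Of the other Pramel genes, Pramel39 was the one measured on all 4 TKO arrays and called in both lines. Its signals were -5.05 and -5.06 in TKO_26 and -5.88 and -6.08 in TKO_29, against -7.36 and -7.48 in WT, where 1 array was well above background. The groups did not overlap, and the signal was at least 3.22-fold higher in TKO embryoid bodies. A second Pramel39 probe ran the same way, with a mean difference of 2.08 on the log2 scale and 1.91 on the brighter one. Pramel19 was above background on all 4 TKO arrays and neither WT array, with -5.75 and -6.50 in TKO_26 and -7.65 and -7.68 in TKO_29, against -8.96 and -8.12 in WT. It was at least 2.63-fold higher in TKO_26, while in TKO_29 its bound lay under 1 and no fold can be given, so it was not called in both lines.

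Pramel14, Pramel16 and Pramel50 were called in both lines but lay close to background. Each was well above background on 3 of 4 TKO arrays and on 0 of 2 WT arrays, and TKO_26 replicate 1 was the array that missed. Pramel50 ran from -8.02 to -6.57 in TKO embryoid bodies, against -9.17 and -10.43 in WT, at least 1.17-fold higher. Pramel14 ran from -7.33 to -6.52 in TKO, against -9.04 and -8.91 in WT, at least 1.39-fold higher, and for Pramel16 the bound was under 1. The lowest signal well above background differed between arrays. It was -6.24 and -8.02 on the TKO_26 arrays, -9.23 and -8.96 on the TKO_29 arrays, and -6.93 and -8.18 on the WT arrays. The part of these floors in the values of probes this dim was not tested. All 3 calls depended on single arrays. That of Pramel14 was lost without TKO_26 replicate 1 or either WT array, that of Pramel16 without either TKO_29 array or WT replicate 1, and that of Pramel50 without TKO_26 replicate 2, either TKO_29 array or WT replicate 2, where the log2 difference was 1.84 to 2.62.

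Other Pramel genes were measured in WT as well. Pramel12 had -0.89 and -1.0 in TKO_26 and -1.08 and -1.19 in TKO_29, against -0.57 and -0.77 in WT, a TKO signal 0.775 times that of WT. Pramel13 had -0.59 and -0.43 in TKO_26 and -0.92 and -1.0 in TKO_29, against -0.15 and -0.07 in WT, or 0.649 times. In both genes every TKO array lay below both WT arrays, with differences short of 2-fold. The start region of Pramel13 is shown beside those of Pramel6 and Pramel7 as that of a family gene measured on all 6 arrays. It is chr4:144408415-144408714 on the minus strand and holds 7 CpGs, in capitals.
Pramel13: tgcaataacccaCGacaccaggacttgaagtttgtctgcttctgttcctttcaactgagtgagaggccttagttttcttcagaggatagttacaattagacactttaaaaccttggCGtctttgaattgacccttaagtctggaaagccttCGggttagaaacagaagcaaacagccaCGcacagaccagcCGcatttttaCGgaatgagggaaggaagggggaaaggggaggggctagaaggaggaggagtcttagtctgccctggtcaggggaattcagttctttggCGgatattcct
Pramel20 was also measured on every array, with -4.79 and -4.83 in TKO_26 and -5.58 and -5.72 in TKO_29, against -5.40 and -5.15 in WT. Its TKO_26 arrays lay above WT and its TKO_29 arrays below, for a TKO signal 1.03 times that of WT.

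Pramel25, Pramel31 and Pramel34 were above background on 3 of 4 TKO arrays. Pramel34 was measured on both WT arrays, at -6.21 and -6.40, against -7.71 to -6.53 in TKO, so that WT was at least 1.37-fold higher. Pramel25 ran from -7.80 to -6.62 in TKO and lay at -7.37 and -6.69 in WT, with overlapping groups. Pramel31 ran from -8.68 to -7.73 in TKO, against -9.05 and -9.01 in WT, and its bound was under 1.

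The Nlrp genes encode NACHT and leucine-rich repeat proteins. Some, such as Nlrp5 (MATER) and Nlrp4f, belong to or bind the subcortical maternal complex of the egg, which is required for the first cleavages in mice, and others, such as Nlrp1a and Nlrp3, are innate immune sensors that form inflammasomes. Nlrp4f is shown because it is the one gene here with a large difference that was measured on all 6 arrays. Its start region is chr13:65205667-65205966 on the minus strand, with 2 CpGs in capitals.
Nlrp4f: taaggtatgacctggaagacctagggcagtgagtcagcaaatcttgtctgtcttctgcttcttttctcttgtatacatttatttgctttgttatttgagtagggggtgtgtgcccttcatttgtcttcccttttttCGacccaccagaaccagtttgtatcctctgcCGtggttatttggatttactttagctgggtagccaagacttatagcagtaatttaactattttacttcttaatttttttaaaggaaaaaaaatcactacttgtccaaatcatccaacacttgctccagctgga
Nlrp4f had -2.91 and -2.67 in TKO_26 and -2.96 and -2.94 in TKO_29, against -6.60 and -6.37 in WT. The 4 TKO arrays lay within a narrow range far above both WT arrays, and the signal was 12.3-fold higher in TKO embryoid bodies, 13.0-fold in TKO_26 and 11.6-fold in TKO_29. It has 1 probe on the array, so that a sequence difference under that probe cannot be told apart from a difference in RNA.

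Nlrp5 had -4.99 and -4.83 in TKO_26 and -4.85 and -5.15 in TKO_29, against -7.24 and -6.68 in WT, where 1 array was well above background. The TKO arrays of both lines lay together and above WT, by at least 3.61-fold. The oocyte genes Nlrp4a, Nlrp4c and Nlrp4e were well above background on both TKO_29 arrays and on none of the TKO_26 or WT arrays (0 of 4). Their bounds for TKO_29 over WT were 1.03-fold, 1.24-fold and 1.04-fold, close to no difference. Nlrp4c met the call in both lines, with 1.05 in TKO_26 and 1.78 in TKO_29 on the log2 scale, although neither TKO_26 array was above background, and the call was lost without any 1 array other than TKO_26 replicate 1 (log2 difference 1.26 to 1.57). Nlrp9b, known in mice as a sensor of viral RNA in the gut and also expressed in oocytes, was at least 1.29-fold higher in TKO, above background on 3 of 4 TKO arrays and on 0 of 2 WT arrays. It was not called in both lines.

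The inflammasome sensors gave no measured difference. Nlrp3, the sensor of cell damage in macrophages, was above background on the TKO_29 arrays alone, with -7.84 and -7.91 there, -8.17 and -7.87 in TKO_26, and -9.03 and -10.27 in WT, and its bound was under 1. The probe that stands for Nlrp1a was saturated on all 6 arrays, which gives it no order between groups, while its other probe was above background on 0 of 6. What a saturated signal beside an undetected one says about Nlrp1a RNA was not tested.

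Obox6 is an oocyte-specific homeobox gene whose relatives are known to act at genome activation in mice. Its signals were -4.62 and -4.90 in TKO_26 and -5.24 and -5.48 in TKO_29, against -9.06 and -10.34 in WT. All TKO arrays and neither WT array were well above background, and the signal was at least 5.63-fold higher in TKO, at least 6.92-fold in TKO_26 and at least 4.58-fold in TKO_29.

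The Zscan4 genes encode SCAN and zinc finger proteins of the 2-cell stage that are known for their role in telomere maintenance in mouse stem cells, and they lie together on chromosome 7. They are near-identical copies, and the sequences of the probes were not used here, so a probe named for one copy may bind the RNA of others. The start regions of Zscan4c and Zscan4f are printed because all 4 Zscan4 windows share a match to the motif of Dux, the transcription factor known to switch on the 2-cell genes in mice. That of Zscan4c is chr7:11005495-11005794 on the plus strand, and that of Zscan4f is chr7:11397665-11397964 on the plus strand, with CpGs in capitals.
Zscan4c: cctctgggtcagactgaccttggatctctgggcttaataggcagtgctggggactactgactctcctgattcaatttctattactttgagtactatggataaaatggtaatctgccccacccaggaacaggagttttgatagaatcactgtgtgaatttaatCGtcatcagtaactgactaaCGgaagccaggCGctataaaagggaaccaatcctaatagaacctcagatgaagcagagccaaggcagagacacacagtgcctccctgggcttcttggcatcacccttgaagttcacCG
Zscan4f: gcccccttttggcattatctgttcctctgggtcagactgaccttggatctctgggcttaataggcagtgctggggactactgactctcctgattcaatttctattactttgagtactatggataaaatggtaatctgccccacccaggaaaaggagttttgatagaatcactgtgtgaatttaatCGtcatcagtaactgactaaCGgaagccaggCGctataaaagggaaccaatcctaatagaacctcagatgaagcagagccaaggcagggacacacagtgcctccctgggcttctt
The aligned windows are identical at 85.1% of positions, gaps included, and both contain TGATAGAATCA, which begins 114 bases before the start site in Zscan4c and 91 bases before it in Zscan4f.

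Zscan4f had -5.00 and -5.08 in TKO_26 and -5.89 and -5.81 in TKO_29, against -7.01 and -7.09 in WT, where 1 array was well above background. It was at least 2.96-fold higher in TKO, at least 3.92-fold in TKO_26 and at least 2.24-fold in TKO_29. Zscan4c had -5.85 and -5.89 in TKO_26 and -6.88 and -6.37 in TKO_29, against -9.00 and -8.28 in WT, with neither WT array above background. It was at least 2.47-fold higher, and its call was lost without TKO_29 replicate 2, where the log2 difference was 2.26. In both genes the order was the same, with both TKO_26 arrays above both TKO_29 arrays and these above WT. A second Zscan4c probe differed by 2.25 on the log2 scale and another was above background on 0 of 6 arrays.

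Tcstv3, another gene of the 2-cell stage, was above background on 3 of 4 TKO arrays. Its signals were -6.95 and -6.40 in TKO_26 and -6.23 and -5.95 in TKO_29, against -8.90 and -8.65 in WT. The groups did not overlap, and the signal was at least 2.25-fold higher in TKO, at least 1.84-fold in TKO_26 and at least 2.75-fold in TKO_29. Its neighbour in name, Tcstv1, was above background on 0 of 6 arrays.

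Genes of the remaining families were not called in both lines. Zfp352, a zinc finger gene of preimplantation embryos, was measured on all arrays, with -0.66 and -0.65 in TKO_26 and -1.30 and -1.36 in TKO_29, against -1.38 and -1.15 in WT. Its TKO_26 arrays lay above WT and its TKO_29 arrays within the range of WT, for a TKO signal 1.21 times that of WT. Its other probe was above background on WT replicate 2 alone. Usp17la, of a family of deubiquitinating enzymes, was above background on the TKO_29 arrays alone, with overlapping groups (-8.73 to -7.35 in TKO, against -8.51 and -7.92 in WT). Usp17lc, Usp17le and the BTB and TRAF domain genes Tdpoz3 and Tdpoz4 were above background on 0 of 6 arrays, and Tdpoz1 on WT replicate 2 alone. Those 5 genes and Tcstv1 are the 6 that did not enter the tests.

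The rest of the same families was taken by symbol, which added 42 genes with 63 probes. The choice of the 33 may have followed their values, so the 2 sets are described side by side and not tested against each other. On the 6 arrays, from TKO_26 through TKO_29 to WT, 14, 24, 32, 31, 7 and 14 of the 51 listed probes were well above background, and 4, 6, 8, 8, 3 and 5 of the other 63. Among all spots the shares well above background on the same arrays were 38.4%, 49.6%, 55.8%, 53.1%, 42.8% and 51.1%. The part of array brightness in the counts was not tested. Of the 42 other genes, 29 were above background on 0 of 6 arrays and 4 entered the tests. One of them, Zscan4a, was called higher in both lines: its signals were -6.28 and -6.09 in TKO_26 and -7.15 and -7.29 in TKO_29, against -8.85 and -8.39 in WT. It was at least 1.80-fold higher in TKO (limma adjusted p = 0.00244 in TKO_26 and 0.00798 in TKO_29), and the call was lost without TKO_29 replicate 1 (log2 difference 1.88). Its probe entered the tests only through the TKO_29 arrays. The filter therefore favoured a higher signal in TKO, and nothing is read from these p-values. Tdpoz8 was measured on all arrays at 1.49 times WT in TKO_26 and 0.864 times in TKO_29. Oog2 was above background on the TKO_29 arrays alone. Dubr, a noncoding RNA that shares only its first letters with the Dub genes, lay at 0.672 times WT, and none of these 3 was called in both lines.

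**Figure D2:**
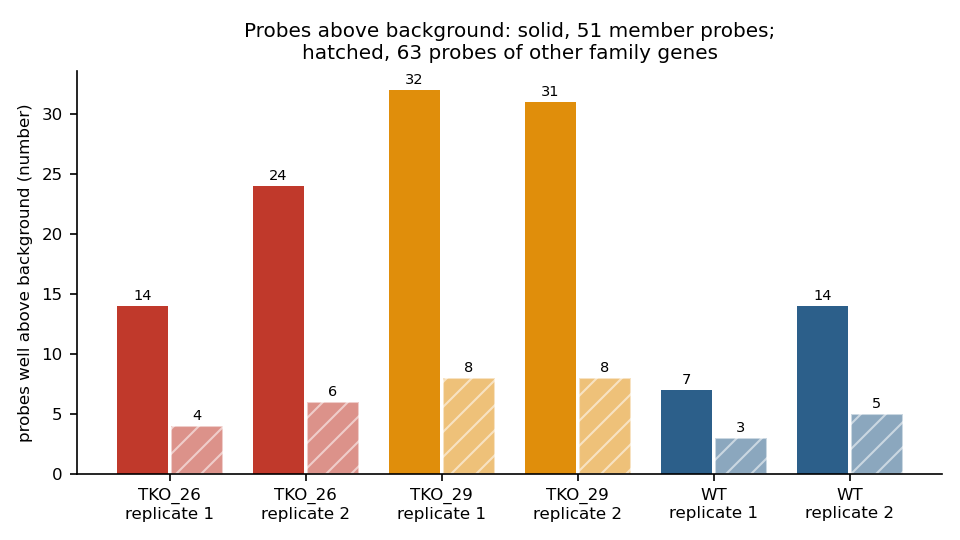
Number of probes well above background on each array (vertical axis) for the 51 probes of the listed genes (solid bars) and the 63 probes of the other genes of the same families (hatched bars). The TKO_29 arrays detected 32 and 31 of the listed probes and the WT arrays 7 and 14, while the other genes gave at most 8 on any array.

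The 2 TKO lines were also compared with each other. The genes were chosen with the signals of both lines known, so the tests are not independent of the choice. In the fit over all genes limma called 0 of the 27, and 0% of the 21420 features tested, and the lowest adjusted p among the 27 was 0.0652. At an unadjusted p under 0.05, 11 of the 27 differed, 7 of them higher in TKO_26 and 4 higher in TKO_29, beside 22.4% of all features, 13.7% higher in TKO_26 and 8.72% higher in TKO_29. The 4 higher in TKO_29 were Nlrp4a, Nlrp4c, Nlrp4e and Nlrp9b, which entered the tests only through the TKO_29 arrays, as did Pramel31 among the 7. The filter therefore favoured the direction of the 4, and nothing is read from the counts. With at least 2-fold as well there were 2, beside 5.41% of all features, and 1 lay in each direction, beside 3.97% higher in TKO_26 and 1.44% higher in TKO_29. Pramel19 was 1.54 higher in TKO_26 on the log2 scale (95% interval 0.56 to 2.52, limma adjusted p = 0.121). Nlrp4e was higher in TKO_29, at -1.33 for TKO_26 minus TKO_29 (-2.52 to -0.15, adjusted p = 0.19), but neither TKO_26 array measured it and its bound was under 1.

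Intervals of the difference between the lines are given for the genes with larger signals. Zscan4f lay 0.80 higher in TKO_26 (0.50 to 1.11, limma adjusted p = 0.0658), Zscan4c 0.75 higher (-0.04 to 1.54, adjusted p = 0.236) and Zscan4a 1.03 higher (0.52 to 1.54, adjusted p = 0.0916). Zscan4a was above background on only 1 TKO_26 array. Pramel39 lay 0.92 higher in TKO_26 (0.58 to 1.26, adjusted p = 0.0652). The lines lay close together in Nlrp4f, at 0.16 (-0.23 to 0.55), Nlrp5, at 0.09 (-0.51 to 0.70), and Pramel7, at 0.07 (-0.81 to 0.95). These intervals still allow differences of up to the stated sizes. Nlrp4a (-0.81, adjusted p = 0.0665) and Nlrp4c (-0.73, adjusted p = 0.132) lay higher in TKO_29 but were not above background in TKO_26.

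**Figure D3:**
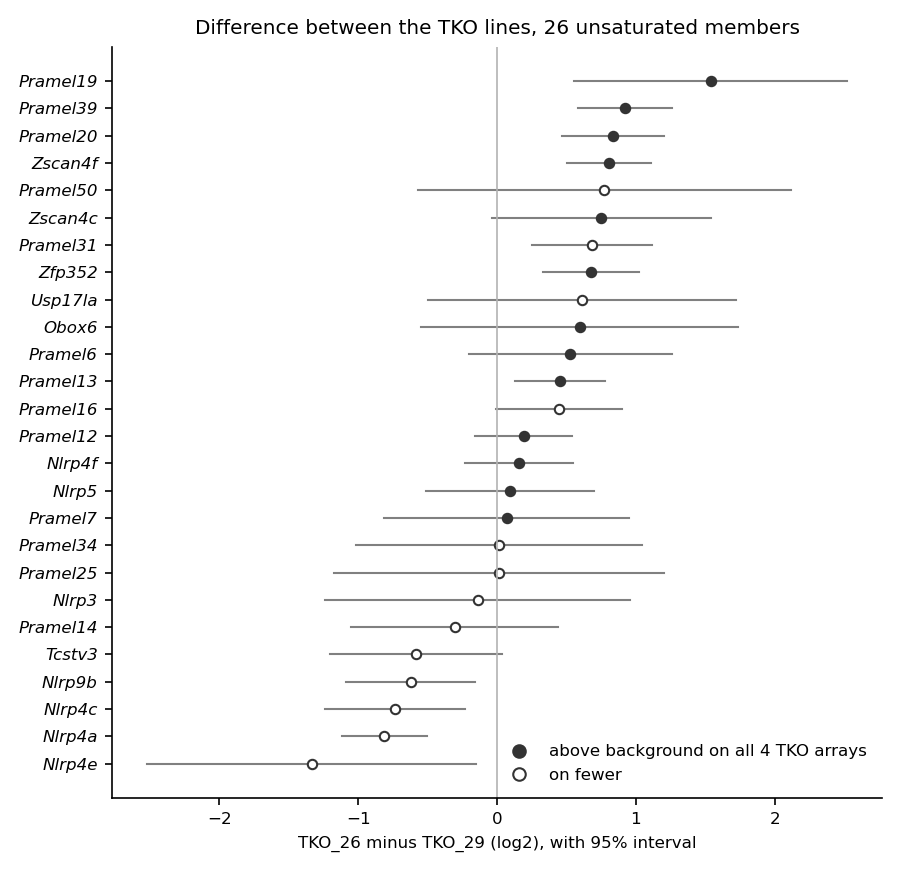
Difference between the TKO lines for the 26 unsaturated genes (horizontal axis, TKO_26 minus TKO_29 on the log2 scale, with its 95% interval); filled points were well above background on all 4 TKO arrays and open points on fewer. Pramel19, at 1.54, and Nlrp4e, at -1.33, lie at the ends, and the intervals of Nlrp4f, Nlrp5 and Pramel7 span 0.

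Genes that work with these families were taken from lists of known partners. The adjusted p-values given for them are over arrays, so they measure the spread between arrays of a line and not between lines. In the list of the subcortical maternal complex and other maternal effect genes, 9 of 15 were tested, of which 4 were higher in both lines and 0 lower. Nlrp4f and Nlrp5 are 2 of the 4 and belong to the families themselves. Of the other 7, 2 were higher and 0 lower. Their median log2 difference was 0.73 in TKO_26 and 0.33 in TKO_29, beside 0.02 and -0.09 over all features. Both medians were the values of Zbed3, which entered the tests only through the TKO_29 arrays, as did Ooep and Padi6. The filter therefore favoured a higher signal in TKO_29, and nothing is read from the medians. Khdc3 (FILIA), a subunit of the complex, had -1.39 and -1.26 in TKO_26 and -1.38 and -1.45 in TKO_29, against -4.11 and -4.17 in WT. It rose 6.81-fold (limma adjusted p = 0.000646 in TKO_26 and 0.000667 in TKO_29). Dppa3 (Stella), a maternal protein that shields DNA methylation in the zygote and is also a germ cell marker, rose 5.15-fold (adjusted p = 0.00115 in TKO_26 and 0.00155 in TKO_29), and in both genes the TKO arrays of both lines lay far above WT. The other subunits did not pass in both lines: Ooep was at least 1.58-fold higher in TKO and Tle6 was 1.40-fold higher. Padi6 gave no fold for the 2 lines together and was at least 1.17-fold higher in WT than in TKO_29. Of the remaining genes, Zbed3 was at least 1.45-fold higher in TKO and Npm2 at least 1.66-fold higher in WT, and neither was called.

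Of 18 listed genes of oocyte growth and the zona pellucida, 7 were tested, 1 rose and 1 fell in both lines, and 8 were above background on 0 of 6 arrays. Zp3, a zona glycoprotein, rose 2.77-fold (limma adjusted p = 0.00190 in TKO_26 and 0.00248 in TKO_29), with -4.62 to -4.91 on the TKO arrays and -6.25 and -6.27 on the WT arrays. Gdf9, a growth factor secreted by the oocyte, fell, being at least 2.29-fold higher in WT (adjusted p = 0.00920 in TKO_26 and 0.00450 in TKO_29). The list's median log2 difference was -0.05 in TKO_26 and -0.59 in TKO_29.

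Among 9 tested regulators and partners of the 2-cell programme, 2 rose and 1 fell, with medians of 0.30 in TKO_26 and 0.36 in TKO_29. Sp110, which counts among the 9, was saturated on 5 of 6 arrays. Zscan5b, a zinc finger gene, was above background on 3 of 4 TKO arrays and 0 of 2 WT arrays and at least 2.16-fold higher in TKO (limma adjusted p = 0.00241 in TKO_26 and 0.00170 in TKO_29). Its probe entered the tests only through the TKO_29 arrays, so the filter favoured a higher signal in TKO. Dppa4, a nuclear protein that helps to switch on Dux in mouse stem cells, rose 2.58-fold (adjusted p = 0.0189 in TKO_26 and 0.00941 in TKO_29), though the call was lost without TKO_26 replicate 1, either TKO_29 array or WT replicate 1, with log2 differences of 1.1 to 1.39. Gata2, a transcription factor that 2-cell-like cells share with blood progenitors, fell to 0.426 times WT (adjusted p = 0.0162 in TKO_26 and 0.0149 in TKO_29), a call lost without either TKO_29 array or WT replicate 1 (log2 difference -1.28 to -1.02). Of 22 tested repressors of the 2-cell programme and of germline promoters, which include Kdm1a, Trim28, Setdb1 and the DNA methyltransferases, 0 were called higher and 0 lower in both lines, with medians of 0.20 and -0.11. Short of a call, Dnmt3a lay at 0.538 and Zfp42 at 0.516 times WT, and L3mbtl2 was 2.11-fold higher. The brightest of the 22, the methyltransferase gene Dnmt3b, was saturated on 5 of 6 arrays, which leaves its difference without a firm size. Ehmt2 and Lin28a were saturated on 3 arrays, and Kdm1a and Trim28 on 2.

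Among 12 tested partners of the inflammasome, 2 rose and 1 fell. The cytokine gene Il18 rose 3.17-fold (limma adjusted p = 0.00798 in TKO_26 and 0.00513 in TKO_29), the pore-forming Gsdmd rose 2.64-fold (adjusted p = 0.00181 in TKO_26 and 0.00259 in TKO_29), and Casp4, an inflammatory caspase, fell to 0.282 times WT (adjusted p = 0.0136 in TKO_26 and 0.00260 in TKO_29). The Casp4 call was lost without either WT array, where the log2 difference was -1.84 and -1.82. Casp1 and Il1b were above background on 0 of 6 arrays. Of 9 listed macrophage and myeloid markers, 8 had a probe and 3 were tested, of which 0 rose and 1 fell in both lines. Csf1r fell to 0.387 times WT, a call lost with the mean of its probes. Itgam lay at 0.421 times WT and Fcer1g was at least 1.8-fold higher in WT, and neither was called. The markers Adgre1 and Lyz2 were above background on 0 of 6 arrays. Of 15 partners of PRAME-type ligases and of the LIF pathway, 2 rose and 0 fell, with medians of 0.28 and 0.27. These were the pluripotency genes Nanog, which rose 4.06-fold (adjusted p = 0.00410 in TKO_26 and 0.00636 in TKO_29), and Gbx2, at least 2.21-fold higher (adjusted p = 0.00808 in TKO_26 and 0.00711 in TKO_29). Gbx2 entered the tests only through the TKO lines, so the filter favoured its direction. The ligase partners Elob and Rbx1 were saturated on all 6 arrays, which gives them no order between groups. They still count in the 15 and in the medians.

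With normexp background correction the calls of Zp3, Gdf9, Zscan5b, Gata2, Il18, Gsdmd, Casp4 and Gbx2 were lost, as were those of Dazl and Tubb3 among the markers.

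**Figure D4:**
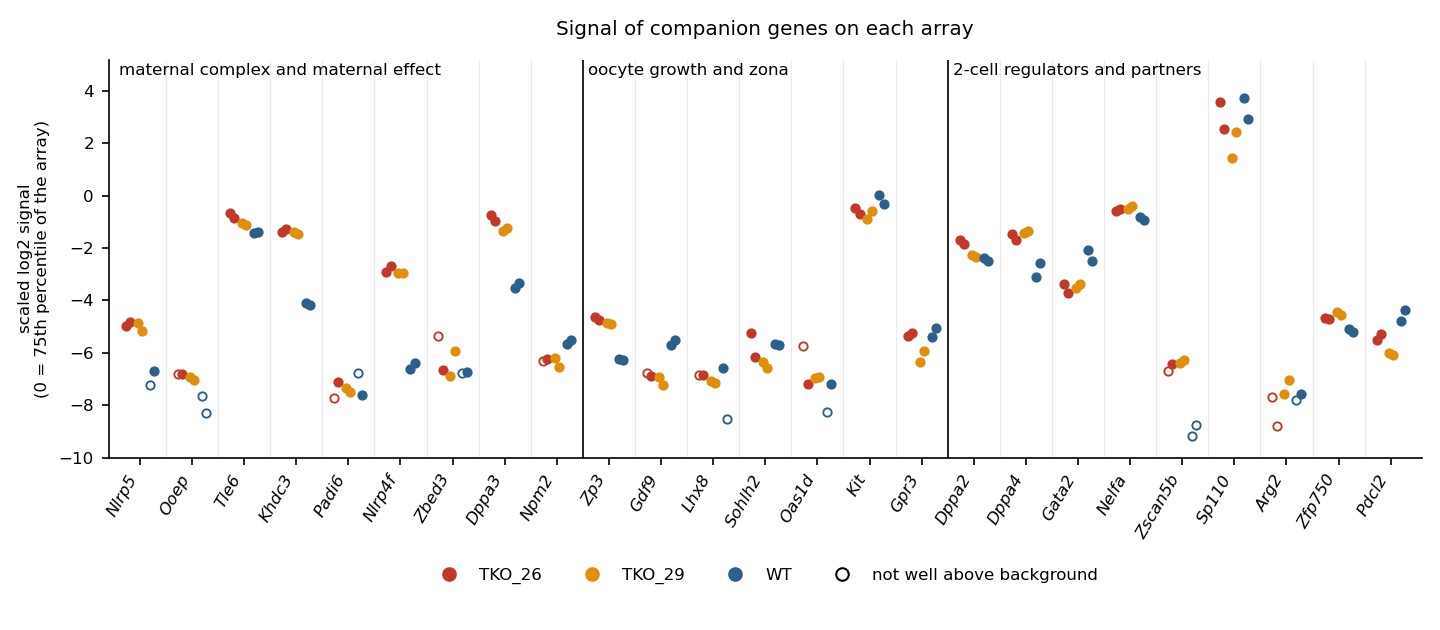
Scaled log2 signal on each array (vertical axis) of the tested genes of 3 partner lists, with TKO_26, TKO_29 and WT from left to right within each gene and open circles where the probe was not well above background. Khdc3, Dppa3 and Nlrp4f stand far above WT in both TKO lines, while Gdf9 and Gata2 lie above in WT.

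Start regions were available for 28 of the listed genes. The windows of the 11 that were called higher held 1 to 7 CpGs with a median of 2, and those of the other 17 had a median of 2 as well. Other genes of the families had a median of 1 (50 genes), and all 27025 genes of the table had a median of 7. Low CpG content was shared by the listed genes whether called or not: all of them had at most 10 CpGs, as did 58.1% of the whole table.

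Motifs were searched on both strands of each window. The Dux motif was found, as TGATAGAATCA, in the windows of Zscan4b, Zscan4c, Zscan4d and Zscan4f, and with any letters at its 2 free positions in 0.233% of all windows. Since these windows are copies of one another (82.4% to 90.7% identical to that of Zscan4c), they are not separate matches. The E-box CACGTG, bound by MAX and its partners, was in 0 of the 28 windows and in 7.24% of all. The STAT motif TTCNNNGAA was in those of Nlrp9b, Usp17la and Usp17lc, none of which was called, and in 8.47% of all, and the E2F motif TTCCCGC was in 0 of the 28 and in 4.66% of all, although a second start of Nlrp5 holds it as GCGGGAA. The windows of Pramel6, Pramel7 and Nlrp4f held 0 matches to these 4 motifs. A match here is a stretch of letters and not a measured binding site.

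**Figure D5:**
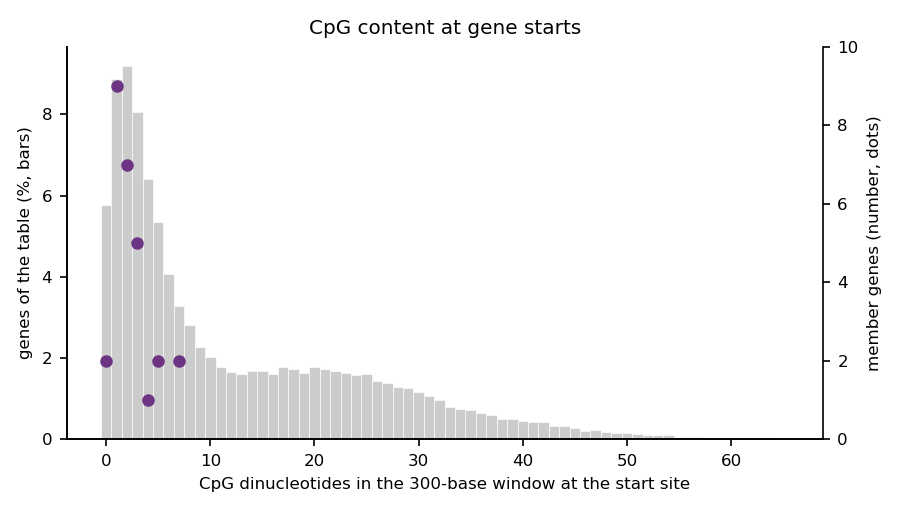
CpG dinucleotides in the 300-base window at the start site (horizontal axis), as the percentage of all 27025 genes of the table (bars, left axis) and the number of the 28 listed genes (dots, right axis). The dots end at 7 CpGs, inside the low-CpG peak of the bars, which run on to 65.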

How the data were processed

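Total RNA of embryoid bodies was measured on 6 1-colour Agilent arrays, 2 each of TKO_26, TKO_29 and WT, grouped by the sample labels. Per the file headers, Agilent Feature Extraction 10.5.1.1 wrote the deposited scanner files, in which each spot's processed intensity is corrected for background and for spatial trend. A deposited matrix of log2 values by the authors has no stated processing in the labels; each column followed its own array (r 0.9953 to 0.9998), but for TKO_29 replicate 1 another array fitted as well (0.9962 against 0.9963).

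Control spots and outlier flags were left out, saturated spots kept and repeated spots averaged. Of 55418 probes, 27365 (49.4%) were named by matching their accession to a RefSeq table of GRCm38.p6; the array design used mm9, so no probe coordinates are given. Log2 processed signals minus the 75th percentile over the 19173 probes above background on all arrays were fitted with limma 3.58.1 in R 4.3.3, on 6 arrays in 3 groups (3 residual degrees of freedom) and on line averages (1 residual degree of freedom, with WT taken to vary as the TKO lines do), with Benjamini-Hochberg adjustment over all features. The fit was tested on simulated data. Sequences came from RefSeq and figures from matplotlib 3.10.9.

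A bound sets the brighter group's mean against the mean over arrays of the lowest signal well above background or the probe's own signal, whichever is higher. Precision is limited by how few arrays and lines there are. The genes and partner lists were chosen with earlier results of these data known. Every listed gene with a tested probe was named, the called and the 3 brightest others of the families, and up to 3 called genes per partner list, or the brightest where none was called. Other genes named for context were chosen after their values were seen. The alternatives were other background corrections, scalings, filters, probe summaries and variance models, the deposited matrix, the replicate number as a block and each array left out.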

Additional observations from a re-analysis of the deposited data

Results flagged for a closer look

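The 27 listed and 4 other family genes tested were searched for TKO lines on opposite sides of both WT arrays. In 2 genes both TKO_26 arrays lay above both WT arrays and both TKO_29 arrays lay below them, and neither gene was called against WT in either line. The share of all features with such an order was not counted, so nothing is read from the 2. Pramel20 had -4.79 and -4.83 in TKO_26 and -5.58 and -5.72 in TKO_29, against -5.40 and -5.15 in WT. The difference between the lines was 0.84 on the log2 scale (limma adjusted p = 0.0805), with an adjusted p of 0.0430 over the genes above background on all 6 arrays and 0.304 without TKO_29 replicate 1. Tdpoz8 had -4.06 and -4.08 in TKO_26 and -4.88 and -4.83 in TKO_29, against -4.58 and -4.71 in WT, a difference of 0.79 (adjusted p = 0.0687). Its dimmer probe, above background on 3 of 4 TKO arrays and 1 WT array, had overlapping groups.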

How the results depend on the processing

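Of 357 differences of the listed genes under the alternatives, 295 moved by less than the spread between arrays. Settings that changed only the filter, the variance model or the block left a gene's difference as it was where the same probe stood for it. The 295 therefore include differences that could not move, and they are no measure of stability. In all 8 changed sign: 1 of Nlrp3, at -0.37 with normexp against 1.7, and, with smaller differences, 2 of Pramel20 (-0.09 to 0.18), 2 of Pramel25 (-0.53 to 0.15) and 3 of Usp17la (-0.44 to 0.58). The 13 listed genes called higher in both lines became 3 with normexp, 6 with the deposited matrix and 1 over genes above background on all 6 arrays, where 6 were tested. They were 9 to 12 with 1 array left out. The other family gene called became 0 with normexp, the matrix and that filter, and was 0 to 1 with 1 array left out.

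Of all features, 867 were higher in both lines, 385 without a filter, 309 with normexp and 449 over genes above background on all arrays (554 to 992 with 1 array left out). TKO_26 against WT gave 2869 calls, and 1410, 1422 and 1499 under those settings (2150 to 3444 with 1 array left out). TKO_29 against WT gave 4147, and 2549, 2687 and 2534 (2716 to 4322). Between the TKO lines the 0 calls became 1 with all-probe scaling, 246 with the matrix, 337 over genes above background on all arrays, 483 with a variance trend and 0 to 932 with 1 array left out, the highest without TKO_26 replicate 2. Partner genes called, Nlrp4f and Nlrp5 included, numbered 8 without a filter and 5 with normexp, against 14. On line averages the 194 calls became 1777 with the matrix, 306 with averaged probes, 782 with normexp, 1520 with a variance trend, 0 without a filter and 0 over genes above background on all arrays (0 to 1437 with 1 array left out). Higher calls made up 38% of those in both lines and 25.7% with normexp. The causes were not tested, apart from the fewer genes that a filter leaves.

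The replicate number as a block gave 11 listed genes higher in both lines, 752 features higher in both, 2595 calls in TKO_26, 3989 in TKO_29 and 0 between the lines. The deviations of same-numbered arrays correlated with mixed sign (r = -0.23 for TKO_26 with TKO_29, 0.17 for TKO_26 with WT and -0.16 for TKO_29 with WT). The labels do not say what the numbers pair, and these values do not settle it. Normexp was planned on mean signals, which the files do not hold, and was run on median signals, chosen after seeing the data. Signal over background limits most of these genes: 17 of 51 probes were above background on 0 arrays and 6 on all.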
